A study of Mus musculus with 4 samples.

Results

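The spliceosome genes described here are the 66 genes that the authors counted in the KEGG pathway Spliceosome when they tested genes related to differential m6A peaks, in MIN6 cells carrying a GR expression vector against MIN6 cells carrying a control vector. The row holds 80 Ensembl gene IDs, which the authors mapped to 67 distinct Entrez genes. Each Entrez gene was counted once. Hnrnpc, with 2 of the IDs, was left out, and Hspa8, a chaperone that the rule also left out, was not in the row, which leaves 66 genes and 78 IDs. They were set against the 9225 distinct gene IDs of the authors' gene table, which lists genes related to differential peaks. The members were thus chosen by their listing in that comparison, so every count of members below is a description with no test.

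MIN6 is a mouse insulinoma line that serves as a model of pancreatic beta cells, and the labels give C57BL/6 as the strain. The cells received 10 µg of a GR expression vector or of a control vector per 10 cm dish by lipofection, and RNA was taken 24 hours later. Each arm had 1 library from immunoprecipitation with an anti-m6A antibody (GR-m6A-IP and Ctrl-m6A-IP) and 1 input library (GR-Input and Ctrl-Input), 4 libraries in all, so no value could be checked against a replicate. No file used gives values by library, so sequencing depth, RNA level and the size or direction of any m6A change at these genes are unknown. The labels do not spell out GR, taken here to mean the glucocorticoid receptor, a hormone-activated transcription factor. They do not say whether it was activated by a ligand, nor how many cells took up the vector. Of 12 beta-cell markers 10 were in the gene table, among them Pdx1, Mafa, Nkx6-1 and Ins1, while Ins2 and Iapp were not. Of 15 markers of other cells only Gcg and Cd68 were. The table gives no levels, so it does not show how much of any marker the cells made.

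The spliceosome removes introns from pre-mRNA. Small nuclear ribonucleoproteins (snRNPs), each a small nuclear RNA with its proteins, assemble stepwise on the intron: U1 pairs with the 5′ splice site, U2 with the branch site, and the U4/U6.U5 tri-snRNP then joins and is rearranged, with the Prp19 complex, into the catalytic form. SR proteins and HNRNP proteins bind the transcript and help to choose splice sites. In the nucleus, m6A on a transcript can itself alter how it is spliced, through reader proteins. Many transcripts of splicing factors are in turn controlled by alternative splicing of their own RNA, which is background and was not measured here.

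The 66 genes stood in the table in different ways. For 52 of them the gene's own Ensembl ID was in the row. The other 14 were in the row only through an ID of a different name, which the authors' mapping had placed under the gene. Of the 78 IDs, 52 were the genes themselves, all protein-coding in the reference, and 26 were other IDs. Of those 26, the reference classes 21 as pseudogenes and 1 as a microRNA gene, and 4 were not in the RefSeq table used. Reads of a processed pseudogene and of its parent gene are nearly alike, so a listed pseudogene does not show whether the parent transcript, the pseudogene or neither carried the peak.

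The microRNA gene in the row was Mir8094, which lies inside Ddx39b and was counted as that gene. Ddx39b encodes an RNA helicase of mRNA export and of early spliceosome assembly, and its own ID was not in the gene table. Among the other pathway genes, Acin1, Ddx5 and Cherp also contain a listed microRNA gene, as does Sf3a3, whose own ID was not listed. That in Acin1 is Mir6948, on 2 lines. The mature sequences that RefSeq gives for Mir8094, Mir3064, Mir7068 and Mir697 are shown because these listed genes lie inside a pathway gene. The gene table gives no peak positions, so a line under a microRNA gene does not place a peak at its hairpin. The sequences are a description only. They are written 5′ to 3′ with the seed, bases 2 to 8, in capitals, and no seed was shared among them.
mmu-miR-8094: aACUGAAGgacaacgagaaga
mmu-miR-3064-5p: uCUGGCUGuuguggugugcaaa
mmu-miR-3064-3p: uGCCACACugcaacaccuuaca
mmu-miR-7068-5p: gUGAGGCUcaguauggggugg
mmu-miR-7068-3p: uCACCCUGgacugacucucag
mmu-miR-697: aACAUCCUgguccuguggaga

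Mir8094 was on 1 line, and its hairpin covers chr17:35251289-35251405 (GRCm38.p6, the assembly behind mm10, plus strand). It begins 9543 bases after the start of Ddx39b, a gene of 11962 bases on the same strand. Mir3064 was on 1 line, as was its host Ddx5, and lies at chr11:106782693-106782759 on the minus strand, like Ddx5. Mir7068, at chr8:72470016-72470089 on the minus strand, was on 2 lines, against 1 line for its host Cherp. Mir697, at chr4:124731694-124731802 on the plus strand, was on 1 line. Each of these 4 is on the strand of its host, so reads of hairpin and host cannot be told apart by strand.

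The hairpin of Mir8094 is printed whole because the ID of that microRNA gene is all that put Ddx39b in the row. The letters GGAC, the core of the known m6A consensus, are in capitals.
Mir8094 hairpin: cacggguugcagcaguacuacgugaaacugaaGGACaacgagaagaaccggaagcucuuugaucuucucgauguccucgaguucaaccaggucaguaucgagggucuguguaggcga

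GGAC was searched on the transcript strand only. It occurred 1 time in the Mir8094 hairpin and 1 time in the Mir7068 hairpin, and not in those of Mir3064 and Mir697. Of all 1005 mouse hairpins in the RefSeq table, 24.5% hold GGAC, and of the 223 hairpins of listed microRNA genes, 26.5% do. A match of these letters is a description and not a methylated site. Mir7-1 inside the member Hnrnpk, and Mir6975, a second microRNA gene inside Ddx39b, were not listed.

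The pathway was also described with 117 of its genes in 14 groups, written down from known function. Of these, 48 (41%, exact Clopper-Pearson 95% interval 32% to 50.5%) had their own ID in the gene table, beside 25.2% of all 21900 protein-coding genes. The interval covers counting error only. Nothing is read from the difference, since the pathway was chosen because its genes were listed. With genes matched by the symbols the authors deposited, the share of all protein-coding genes was 25.1%. The 48 comprised 47 of the 52 members with their own ID, and Ccdc12, which was in the gene table on 1 line but not in the Spliceosome row.

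**Figure D1:**
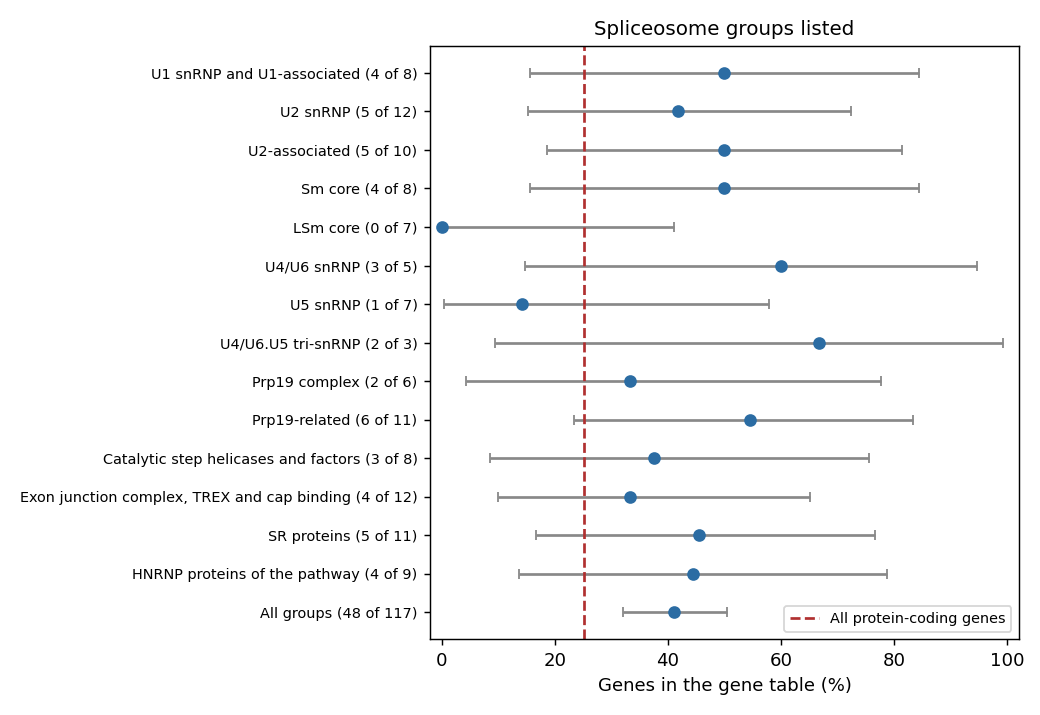
Share of the genes of each spliceosome group that were in the gene table (x axis, percent), with exact 95% intervals as bars and the share of all protein-coding genes, 25.2%, as a dashed line. The intervals are wide and the line crosses that of every single group, from 0 of 7 LSm genes to 2 of 3 tri-snRNP genes.

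Among U1 proteins, the genes specific to the U1 snRNP were absent by their own ID. Snrnp70 and Snrpa, which bind the U1 RNA, were not in the gene table, and Snrpc was in the row only through the pseudogene Gm2495, on 1 line. The listed genes of this group were U1-associated. Among them, Prpf40b, the alternative splicing regulator Rbm25 and the helicase Ddx5 were on 1 line each. In all, 4 of the 8 genes of this group were listed (50%, interval 15.7% to 84.3%). In the authors' deposited table the Gene Ontology term U1 snRNP had 6 of 17 genes with a peak (35.3%, interval 14.2% to 61.7%). Snrpd1, Snrpd2, Snrpd3 and Snrpg, Sm proteins shared with other snRNPs, were among the 6.

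The U2 snRNP had 5 of 12 genes listed (41.7%, interval 15.2% to 72.3%). Sf3a2, a subunit of SF3a that helps U2 to settle on the branch site, was on 4 lines, the highest number of any member by its own ID. Of SF3b, the subunit Sf3b4 was on 2 lines, and Sf3b2, Sf3b5 and Phf5a were on 1 line each. Sf3b1, the large subunit that clamps the branch site, was not listed, nor were Sf3b3, Sf3b6, Sf3a1, Sf3a3 and the U2 protein Snrpa1. Snrpb2, the partner of Snrpa1, was counted through the pseudogene Gm8162, on 2 lines.

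Of 10 U2-associated genes 5 were listed. Ddx46, the mouse counterpart of the yeast helicase Prp5 that acts when U2 joins the branch site, was on 3 lines. Dhx15, a helicase that takes spliceosomes apart, was on 2 lines. Puf60, which binds pyrimidine-rich tracts, Rbm17 and Cherp were on 1 line each. The subunits of U2AF, which reads the 3′ splice site, were absent as own IDs: U2af2 was not listed, and U2af1 was counted through the pseudogene Gm18959, on 2 lines. Smndc1 was counted through Gm5871, on 1 line, and U2surp was not listed.

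The Sm proteins form the ring on the U1, U2, U4 and U5 RNAs. Of 8 Sm genes 4 were listed by their own ID, with Snrpg on 2 lines and Snrpd1, Snrpd2 and Snrpd3 on 1 line each. Snrpb and Snrpf were counted only through the pseudogenes Gm3257 and Gm33178, on 1 line each, and Snrpe and Snrpn were not listed. Snrpg and Snrpd2 had pseudogene or unnamed models besides, Gm49483 on 3 lines and Gm10120 on 1 line. None of the 7 LSm genes, whose proteins form the ring on U6, was listed by its own ID (0 of 7, interval up to 41%). Lsm6 was nevertheless counted in the row, through the pseudogenes Gm10043 on 4 lines and Gm12571 on 2 lines.

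In the U4/U6 snRNP 3 of 5 genes were listed, on 1 line each by their own ID: Prpf31, the cyclophilin Ppih, and Snu13, which binds a bent stem of the U4 RNA. Ppih was also counted through the pseudogenes Gm9088, on 1 line, and Gm8719, on 2 lines, and Snu13 through Gm8948, on 1 line. Prpf3 and Prpf4 were not listed. In the U5 snRNP 1 of 7 genes was listed (14.3%, interval 0.361% to 57.9%). Joined with the U4/U6 and other tri-snRNP genes it was 6 of 15 (40%), and in the authors' deposited table the Gene Ontology term U5 snRNP had 7 of 16 genes with a peak (43.8%, interval 19.8% to 70.1%). The single gene in the U5 group was Ddx23, on 2 lines, the counterpart of the yeast helicase Prp28 that lets U6 replace U1 at the 5′ splice site.

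The large U5 proteins at the catalytic core were not listed: Prpf8, the scaffold of the active site, Snrnp200, the helicase that unwinds U4 from U6, and the GTPase Eftud2. Prpf6, Snrnp40 and Txnl4a were not listed either. Which transcripts were abundant enough for a peak is not given, so absence from the gene table does not show that a transcript lacked a change in m6A. Of the tri-snRNP proteins outside the single particles, Sart1 and Usp39 were on 1 line each and Snrnp27 was not listed. The gene of Zmat2, a zinc finger protein of the tri-snRNP stage, was on 2 lines.

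In the Prp19 complex, Cdc5l and Ctnnbl1 were on 1 line each, 2 of 6 genes. Prpf19, the ubiquitin ligase that names the complex, was counted only through the pseudogene Gm7701, on 2 lines, and Plrg1, Bcas2 and Cwc15 were not listed. The Prp19-related proteins had 6 of 11 genes listed (54.5%, interval 23.4% to 83.3%). Bud31, Snw1 and Syf2, all of the activated spliceosome, were on 3 lines each, and the cyclophilin Ppil1, the RNA-binding Rbm22 and Ccdc12 were on 1 line each. Crnkl1, Isy1, Xab2, Aqr and Ppie were not listed. The 5 members of this group, without Ccdc12 on 1 line, had a median of 3 lines, against 1 line over all 52 members listed by their own ID. Other groups were above 1 line too, with a median of 2.5 for the 4 HNRNP members and 2 for the 5 HSP70 and other members.

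Of 8 helicases and factors of the catalytic steps or grouped with them, 3 were listed, on 1 line each. They were Dhx38, the counterpart of yeast Prp16, the second-step factor Prpf18, and Prpf38b, which was only grouped here. The helicases Dhx16 and Dhx8, and Slu7, Cdc40 and Prpf38a, were not listed. Of 12 genes of the exon junction complex, of mRNA export and of cap binding, 4 were listed. Magoh, of the exon junction complex core, was on 3 lines, and Acin1, Thoc3 and the cap-binding Ncbp1 were on 1 line each. The Magoh partner Rbm8a was counted through Rbm8a2, which the reference classes as a pseudogene, on 1 line, and Alyref2 through the ID named B930036N10Rik, on 2 lines. Eif4a3, the helicase that anchors the exon junction complex, was not listed.

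The SR proteins had 5 of 11 genes listed (45.5%, interval 16.7% to 76.6%). Srsf10 was on 2 lines, and Srsf5, Srsf6, Srsf7 and Srsf9 were on 1 line each. Srsf1 and Srsf3 were in the row through Gm11508 and the pseudogene Gm9761 alone, on 1 line each. Srsf2, Srsf4, Tra2a and Tra2b were in neither form. Srsf5 was counted by its own ID and by the pseudogene Gm12966, on 1 line each.

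Of 9 HNRNP genes of the pathway 4 were listed (44.4%, interval 13.7% to 78.8%). Hnrnpm and Hnrnpu were on 3 lines each, Rbmxl1, a paralogue of Rbmx, was on 2 lines, and Hnrnpk was on 1 line. Hnrnpa3 was counted through 5 pseudogenes and not by its own ID. Gm12194 was on 2 lines, and Gm11847, Gm17190, Gm12960 and Gm6363 were on 1 line each. Hnrnpa1, Pcbp1, Rbmx and Rbmxl2 were not listed.

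The pathway row also counted the HSP70 genes Hspa2, on 1 line, and Hspa1l, on 2 lines with a further 2 on the unnamed model Gm10501. Pqbp1, on 1 line, and its binding partner Wbp11, on 2 lines, completed the row.

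**Figure D2:**
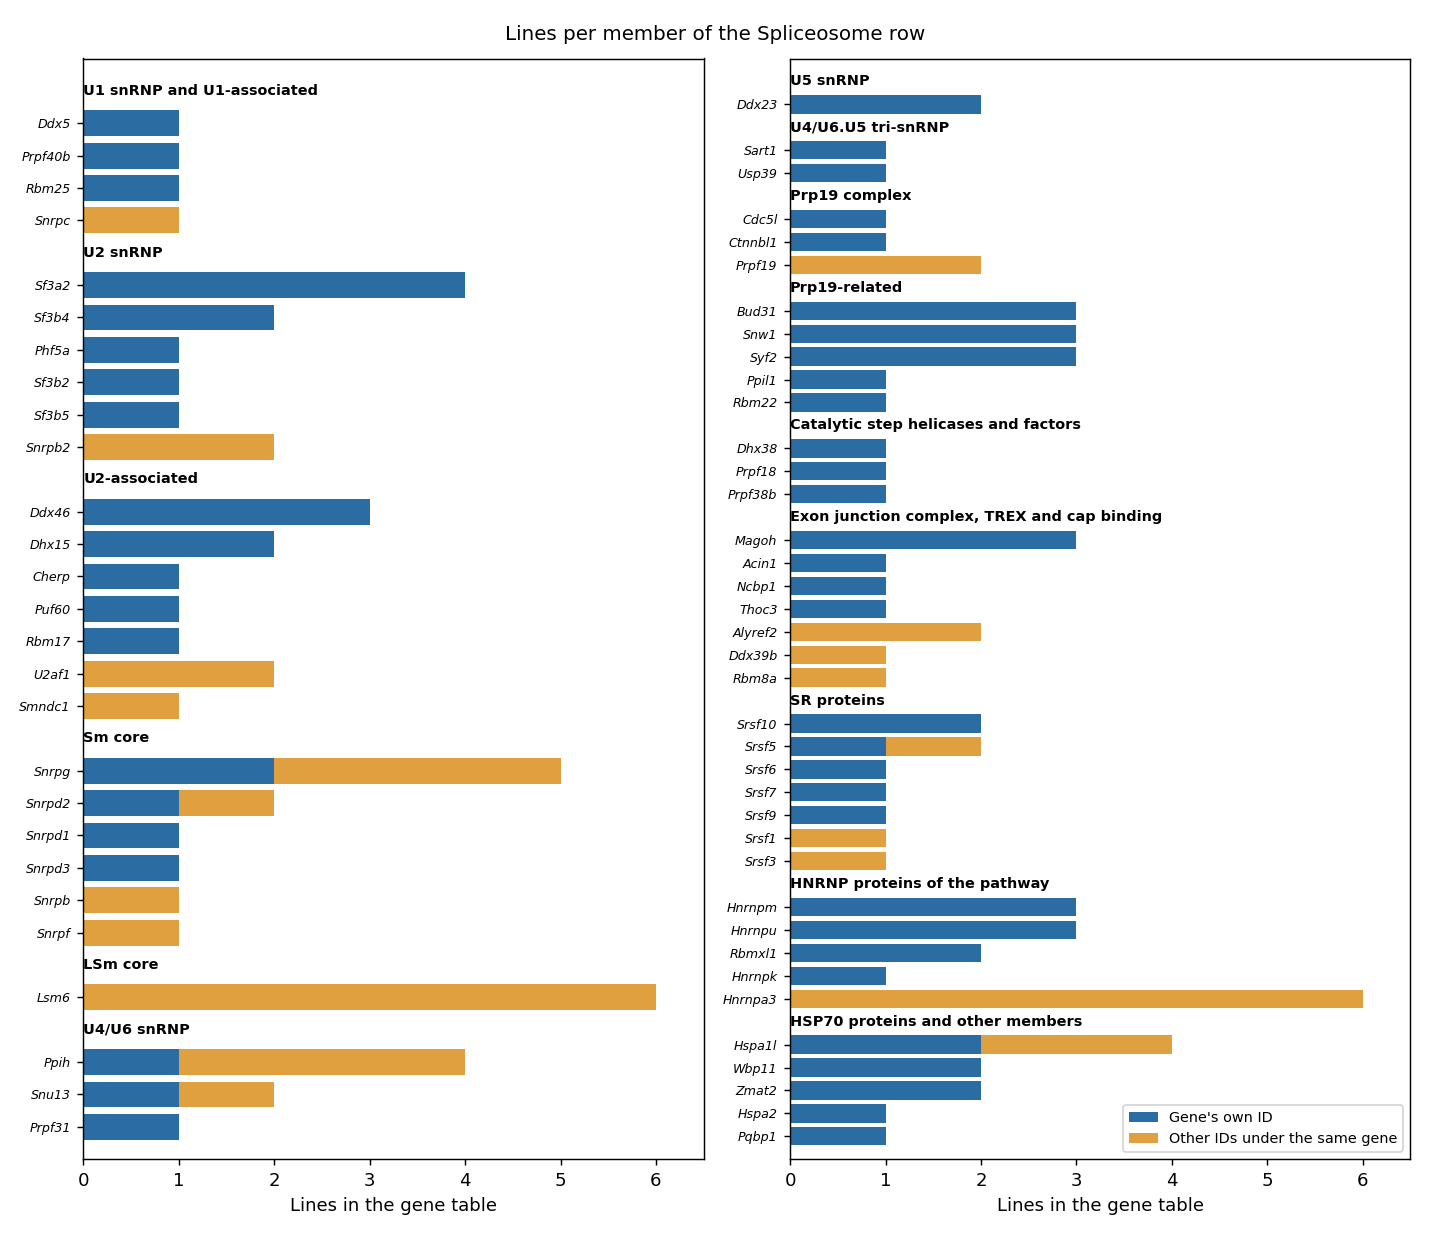
Lines in the gene table (x axis) for 65 of the 66 genes of the Spliceosome row, by group, with lines of the gene's own ID in blue and lines of other IDs counted as that gene in orange. Hnrnpa3 and Lsm6 reach 6 lines on other IDs alone, and Sf3a2 has the most lines by its own ID, 4.

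The file does not say what its lines count, and their number is no measure of m6A change. By their own IDs the 52 members were on 79 lines, and other IDs under the same genes added 39 lines, to 118. Of the 52, 34 were on 1 line, 10 on 2 lines, 7 on 3 lines and 1 on 4 lines. On 2 lines or more were 34.6% of the 52 members and 44.5% of the 5526 listed protein-coding genes, and the median was 1 line in both. The 2458 genes behind the second share are 11.2% of all protein-coding genes. No member was on 5 lines or more, where 4.11% of the listed protein-coding genes stood.

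**Figure D3:**
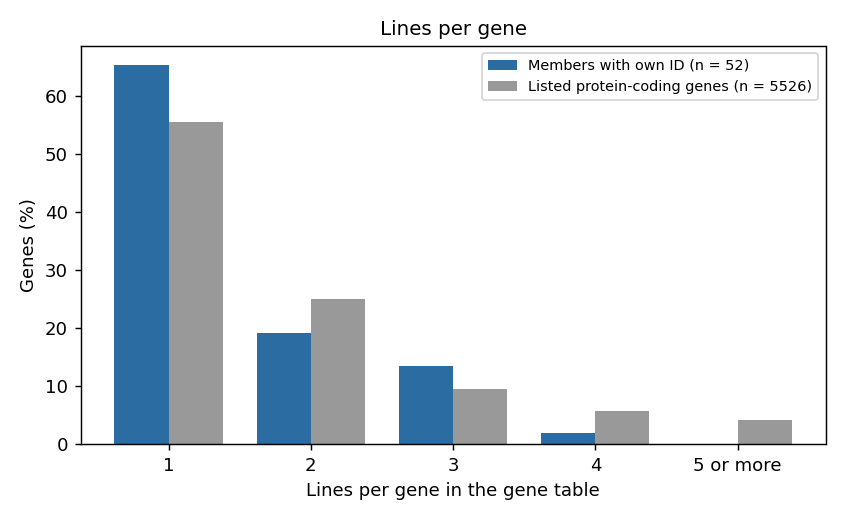
Percent of genes (y axis) by their number of lines in the gene table (x axis), for the 52 members listed by their own ID (blue) and for all 5526 listed protein-coding genes (grey). Members on 1 line made up 65.4%, against 55.5% of all listed protein-coding genes.

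Gene length was close in listed and unlisted pathway genes. The median length in RefSeq was 12.8 kb for the 48 listed and 12.9 kb for the 69 unlisted ones, against 16.5 kb for listed and 17.4 kb for unlisted protein-coding genes as a whole. Members on 2 lines or more had a median of 10.9 kb and those on 1 line 12.3 kb. The 52 members lay on 18 chromosomes, with at most 5 on any of them.

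The gene table also gives protein domain names, which the choice of members did not use directly. An RNA recognition motif was named for 12 of the 52 members (23.1%), among them the 5 listed SR proteins, Hnrnpm, Puf60 and Sf3b4, against 1.5% of all listed protein-coding genes. A C-terminal helicase domain was named for Ddx5, Ddx23, Ddx46, Dhx15 and Dhx38, which is 9.62% of members and 0.977% of listed protein-coding genes. The LSM domain of Sm proteins was named for Snrpd1, Snrpd2, Snrpd3 and Snrpg. These 4 were among only 7 listed protein-coding genes with that domain. Such shares describe the make-up of the pathway and say nothing of m6A.

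Of the 26 other IDs, 22 had bounds in RefSeq, and 10 of these overlapped a protein-coding gene. None of the 10 overlapped genes was in the gene table, beside 25.2% of all protein-coding genes, and nothing is read from so few. Besides Ddx39b the overlapped genes were those around pseudogene copies, such as Sv2c around Gm17190, Fam222b around Gm12571 and Galnt1 around Gm7701. Among the members listed by their own ID, 9 of 52 overlapped another listed gene. The same share over all listed genes was not counted. Bud31 overlapped Ptcd1, Ddx5 overlapped Cep95, Hnrnpk overlapped Rmi1, Srsf9 overlapped Gatc and Wbp11 overlapped BC049715, with each of these neighbours on 1 line. Acin1, Cherp, Hspa2 and Prpf31 overlapped a listed gene too, Acin1 both a long non-coding RNA on 4 lines and Mir6948 on 2 lines. How the authors gave a peak to overlapping genes, and whether strand was used, is not given in the sources used here, so for these 9 members and their neighbours the source of a line cannot be told apart.

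Spliceosome ranked 7th of 290 pathways by p-value in the authors' deposited table, with p = 1.26e-14, adjusted p = 5.21e-13, and 135 background genes. An adjusted p below 0.05 was given for 66.9% of all pathways there. The input of that test counts IDs, 1.19 per distinct gene for Spliceosome, and 16 of the 51 pathways with 50 or more distinct genes had a higher ratio. Of the 66 members, 42 were in no other pathway row. RNA transport shared 7 members (10.6% of the members and 8.86% of its own genes), namely Acin1, Alyref2, Ddx39b, Magoh, Ncbp1, Rbm8a and Thoc3. The mRNA surveillance pathway shared these without Thoc3, and Herpes simplex infection shared 8, mostly SR proteins.

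The authors' Gene Ontology (GO) table gives for each term the genes with a peak and the background genes. In 40 splicing terms of 10 to 500 background genes, the share with a peak ran from 7.69% to 56.5% with a median of 36.3%. The distinct IDs of all terms of that table were 26% of its background, and 32 of the 40 terms lay above this. The terms share many genes, so they are not separate evidence. The over-representation p-value of all 40 in the authors' deposited table was 1, even for the term at 56.5%. Why is not given, so neither enrichment nor its absence is read from these p-values.

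Some GO terms for assembly stages and for particles are given here by rising share, which is not the order of assembly. The catalytic step 1 spliceosome had 1 of 13 genes (7.69%, interval 0.195% to 36%), which was Rbm22. The precatalytic spliceosome had 5 of 28 (17.9%), the Prp19 complex 4 of 16 (25%), and the catalytic step 2 spliceosome 33 of 96 (34.4%). The U2 snRNP had 10 of 21 (47.6%) and the U12-type spliceosomal complex, which removes a rare class of introns, 13 of 26 (50%). Of further stage terms, the prespliceosome had 3 of 12 (25%) and the U2-type catalytic step 2 spliceosome 9 of 30 (30%). The post-mRNA release complex had 5 of 12 (41.7%). In the U1, U2, U4 and U5 terms, Snrpd1, Snrpd2, Snrpd3 and Snrpg recurred. They made up 4 of the 7 genes of the U5 snRNP term, where Ddx23 and Prpf18 were the other members and Cd2bp2 the gene from outside the row.

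**Figure D4:**
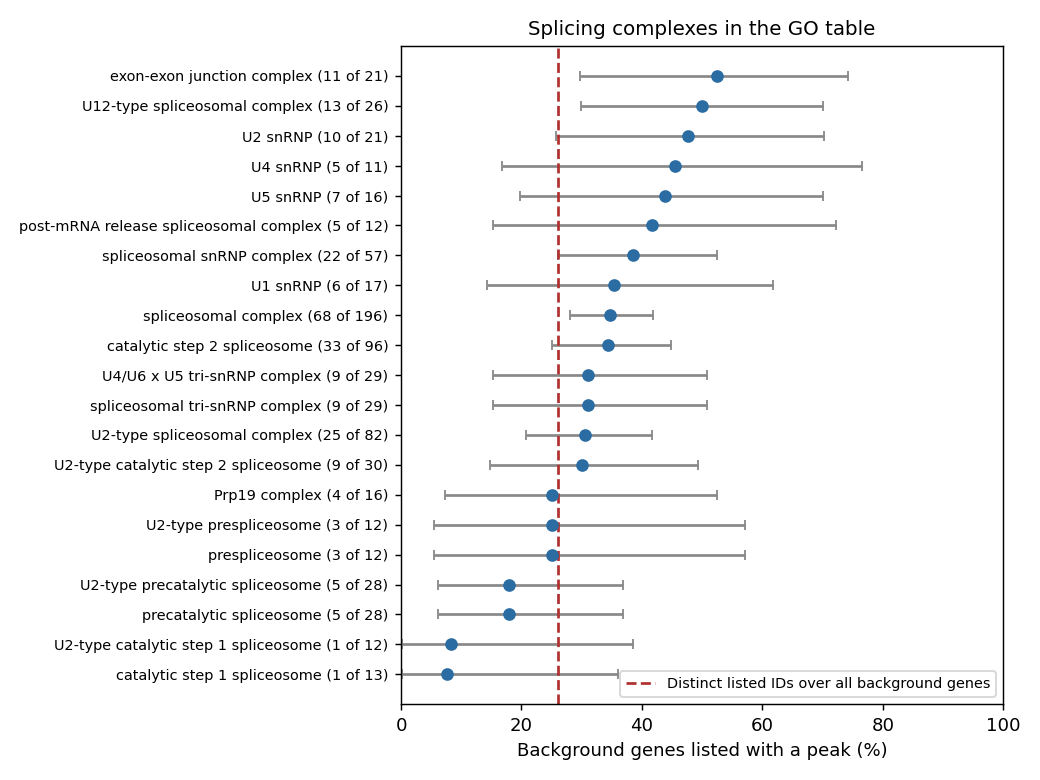
Share of background genes with a peak (x axis, percent) for the splicing complexes of the authors' GO table, with exact 95% intervals as bars and the share of distinct IDs over all background genes, 26%, as a dashed line. The exon-exon junction complex is highest with 11 of 21 genes, and the catalytic step 1 spliceosome lowest with 1 of 13.

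Negative regulation of mRNA splicing had 13 of 23 genes with a peak (56.5%, interval 34.5% to 76.8%) and positive regulation 6 of 32 (18.8%, interval 7.21% to 36.4%). Members in the negative term were Acin1, Hnrnpk, Rbmxl1, Srsf6, Srsf7, Srsf9 and Srsf10, and those in the positive term were Ncbp1, Rbmxl1 and Sf3b4. For the broader terms on RNA splicing the counts were 14 of 28 for negative (50%, interval 30.6% to 69.4%) and 15 of 49 for positive regulation (30.6%, interval 18.3% to 45.4%). The difference between negative and positive terms was seen after their counts were known and was not tested. In the exon-exon junction complex 11 of 21 genes had a peak, of which Acin1 and Magoh were members by their own ID. Of the others there, Upf1, Upf2, Upf3a, Upf3b and Smg6 act in nonsense-mediated decay, and Rbm8a2 was counted as a gene of its own.

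Splicing genes outside the row were described by 6 further lists of 89 genes, of which 39 were in the gene table, beside 25.2% of all protein-coding genes. HNRNP proteins outside the pathway had 11 of 21 (52.4%, interval 29.8% to 74.3%), led by Hnrnph3 on 4 lines and Hnrnpdl on 3, with Ptbp1 and Hnrnpa2b1 on 2 and Hnrnpl, Hnrnpr and Syncrip absent. Proteins of nuclear speckles and exon definition had 6 of 10 (60%), led by Son, a scaffold of nuclear speckles, on 7 lines, and by Pnn on 3. Minor spliceosome proteins had 4 of 8, with Zrsr2, which reads the 3′ splice site of U12-type introns, on 5 lines, Snrnp48 on 3 and Snrnp35 on 2. Kinases of SR proteins had 3 of 8, Clk3 on 5 lines, Srpk1 on 3 and Clk1 on 2.

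Factors that assemble snRNPs had 5 of 14 genes listed (35.7%), Gemin6 on 2 lines and Smn1, Gemin8, Prmt5 and Tgs1 on 1. Other regulators of splicing had 10 of 28 (35.7%, interval 18.6% to 55.9%), led by the epithelial regulator Esrp2 on 4 lines and Mbnl2 on 2. Elavl4 and Nova1, RNA-binding proteins best known from neurons, were on 1 line each, and Srrm3, Srrm4, Rbfox1 and Celf2 were not listed.

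Of the small nuclear RNA genes themselves, 96 of 1004 in the reference (9.56%) were in the gene table, beside 25.2% of all protein-coding genes. The median of the 96 was 1 line. Of these, 93 carried a Gm number, by which the U RNA cannot be named from the reference used. The 3 others were Rnu12, the U12 RNA of the minor spliceosome, on 1 line, Rnu7, which acts in histone mRNA processing, on 4 lines, and Rn7sk, a regulator of transcription elongation, on 3 lines. Rnu11, Rnu5g, Rnu6, Rnu2-10 and the named U1 genes were not listed. These genes have many near-identical copies, so the copy that a read came from is uncertain. A name without an Ensembl ID in the gene-name table counted as not listed. None of the genes under LOC names was listed, so the share of 9.56% may be too low. Among Gm-numbered genes it was 93 of 909 (10.2%).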

How the data were processed

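MIN6 cells with a GR or a control vector gave 1 m6A-IP and 1 input library per arm, 4 in all. Software named per the submitters' processing notes were BWA 0.7.12 and HOMER 4.9.1, with the build mm10; how differential peaks were called is not given in the sources used here. The authors' gene table has no header and holds 17052 lines with a gene ID, symbol and protein domains. The KEGG and GO tables hold p-values that the authors computed, adjusted in KEGG by Benjamini-Hochberg after a hypergeometric or Fisher test, per the file headers. No enrichment was recomputed, and depth per library is unknown.

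Lines were counted per Ensembl ID. Symbols came from a gene-name table that matched 9217 of 9225 IDs, and classes, bounds and sequences from RefSeq (GRCm38.p6), matched by symbol. An ID was called a gene's own where its symbol or RefSeq synonym was that of the Entrez gene. The Entrez IDs counted for Bud31 and Srsf10 had no usable RefSeq name, so their deposited symbols were used. Pathway genes on chromosome 18 were left out of the microRNA search. Intervals are exact Clopper-Pearson at 95%. Single libraries allowed no test between arms.

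Genes named are, per group, those with the most lines, each snRNP, SR and HNRNP protein, and genes with several IDs; GO terms were picked after their counts were seen. The members and lists were chosen with earlier results of these data known, and 6 members outside the lists were placed in groups afterwards. Protein sequences, planned at first, were not used here, and 1 member is counted but not reported by name. Calculations used Python 3.11.15, pandas 2.3.3, SciPy 1.17.1 and Matplotlib 3.10.9, and counting was tested on simulated data.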

Additional observations from a re-analysis of the deposited data

How the results depend on the processing

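The number of members, 66, was 78 with each ID counted, 67 with Hnrnpc kept, and 52 with protein-coding IDs only or, in a setting added after seeing the data, with own IDs only; all are within 1.5 times. Matching by deposited symbol moved no share of the 14 groups or 6 other lists beyond its interval, nor did joining associated proteins to the U2, U5 and Prp19 groups, where U5 was at 40% in place of 14.3%. On 2 lines or more, a stricter count by construction, were 11.2% of all protein-coding genes, in place of 25.2%. With this count the share of all pathway genes was 12.8% in place of 41%. Among lists whose share moved beyond its interval, U1 and Sm genes were at 12.5%, exon junction, export and cap-binding genes at 8.33%, and SR proteins at 9.09%. U4/U6, tri-snRNP and Prp19 complex genes and the catalytic step group were at 0%, and snRNP assembly factors and other regulators of splicing at 7.14%. The remaining lists stayed within their intervals. They were LSm genes at 0%, U5 at 14.3%, U2 at 16.7%, U2-associated genes at 20% and Prp19-related genes at 27.3%. Speckle and exon-definition proteins were at 30%, both HNRNP lists at 33.3%, and minor spliceosome proteins and SR protein kinases at 37.5%. With other IDs of the same Entrez gene counted too, added after seeing the data, the share of all pathway genes was 52.1%. Pseudogenes, the microRNA gene Mir8094 and the unnamed model Gm11508 then count as the gene the authors mapped them to. The share of all protein-coding genes was not counted in this way. No paired analysis was possible because each arm had 1 library of each kind. No library could be left out, since the files used hold no value per library.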
